A study of Bos taurus with 138 samples.

Results

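The nuclear genome encodes most subunits of the 5 complexes of oxidative phosphorylation. Genes of these subunits were picked from the count table by symbol: names that start with NDUFA, NDUFB, NDUFC, NDUFS or NDUFV (assembly factors named NDUFAF left out), SDHA to SDHD, UQCR, CYC1, COX4 to COX8, and ATP5. The rule found 85 of 16706 gene symbols, of which 39 belong to complex I, 4 to complex II, 9 to complex III, 15 to complex IV and 18 to complex V. NDUFA4, named as a complex I subunit, is known to be part of complex IV, and here it and its paralog NDUFA4L2 are counted with complex I, as their symbols place them. COX6C and COX7C were not analysed here. All 85 were found in the RefSeq gene table, 83 under the same symbol and ATP5MD and ATP5MPL as synonyms. Of the 85, 83 passed the filter on low counts, and COX4I2 and COX6A2, isoforms of complex IV, did not.

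The series follows cattle (Bos taurus) oocytes, first with an intact germinal vesicle (GV) and then matured to metaphase II (MII), and embryos at the 2-cell, 8-cell, morula and blastocyst stages. Oocytes came from slaughterhouse ovaries inside their cumulus cells, and maturation, fertilization and culture took place in vitro. Cumulus cells were removed from MII oocytes after maturation. For fertilization, semen of 1 bull was added to oocytes still in their cumulus complexes. The labels name no other treatment and no genetic change in any group. Cycloheximide, which arrests ribosomes on mRNA, was added to the culture before collection, and the zona pellucida was removed with protease. At each stage, pooled oocytes or embryos were lysed with cycloheximide and spun through 2 sucrose gradients (A and B), each cut into 10 fractions (F1 at the top). F1-F2 hold free RNA, F3-F5 monosomes, F6-F7 an intermediate and F8-F10 polysomes, and 3 whole transcriptomes (A, B and C) per stage were sequenced from pools taken out of the batches used for the gradients. No label says whether the gradients or pools of a stage came from separate animals, so p-values measure the spread between these libraries.

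Complex I (NADH dehydrogenase) and complex II (succinate dehydrogenase) pass electrons from NADH and succinate to ubiquinone, complex III (the cytochrome bc1 complex) passes them on to cytochrome c, and complex IV (cytochrome c oxidase) passes them to oxygen. The proton gradient that complexes I, III and IV build across the inner mitochondrial membrane drives complex V, the ATP synthase. A few catalytic subunits of complexes I, III, IV and V are encoded by mitochondrial DNA, whereas the genes described here are transcribed in the nucleus and translated on cytosolic ribosomes. Oocytes carry a large store of maternal mitochondria, and in cattle the embryonic genome is activated mainly at the 8-cell stage.

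Levels are given as CPM, counts scaled to a common library size, with the trimmed mean of M-values (TMM) factors of edgeR. Every fraction was amplified separately, so a level is a share of the mRNA in that fraction and not an amount of RNA, and a bulk library cannot tell fewer cells of a type from less RNA per cell. CPM was not divided by transcript length, so levels are compared within a gene and not between genes. Totals ran from 1229382 to 17342859 counts in the 120 fractions and from 3269386 to 11812567 in the 18 transcriptomes. Within F8-F10, 7396 genes were detected in F10 of MII gradient B and 5714 in F9 of morula gradient A, against stage medians of 12450 and 9530.0, and counts at these stages are also given with these libraries or their pools left out. The markers followed the labels, since the summed level of 8 oocyte markers such as ZP2 fell from between 20878 and 23236 CPM in GV transcriptomes to between 419.7 and 1076 in blastocysts, and that of 8 embryo markers such as KRT18 went from between 60.5 and 71.98 to between 4888 and 5583. Among the embryo markers, SOX17 stayed under 1 CPM in all 18 transcriptomes. Sperm markers summed to at most 33.9 CPM in any polysome pool or transcriptome.

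The subunit mRNAs ran through a low point at the 2-cell stage and then rose to a plateau at the morula stage. Summed over the 85 genes, the 3 transcriptomes held 12029, 17297 and 14893 CPM at the GV stage and 13134, 9979 and 8743 at MII. At the 2-cell stage the same sum was 5582, 5518 and 6261 CPM, below every other transcriptome. It was 21562, 23653 and 19992 CPM at the 8-cell stage, 41418, 38241 and 40360 in morulae and 45663, 33235 and 43529 in blastocysts, and morula and blastocyst values overlapped. In the polysome pools (F8-F10 of a gradient summed), the values for gradients A and B were 12110 and 17520 CPM at the GV stage, 18068 and 26980 at MII and 10368 and 9342 at the 2-cell stage. Polysomes then held 25844 and 25078 CPM at the 8-cell stage, 105410 and 58295 in morulae and 95574 and 104700 in blastocysts. Pools and transcriptomes overlapped at the GV stage and were apart at the other 5 stages, with the pools higher each time. The morula gradients were the least alike, with A near the blastocyst pools and B well below them.

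**Figure D1:**
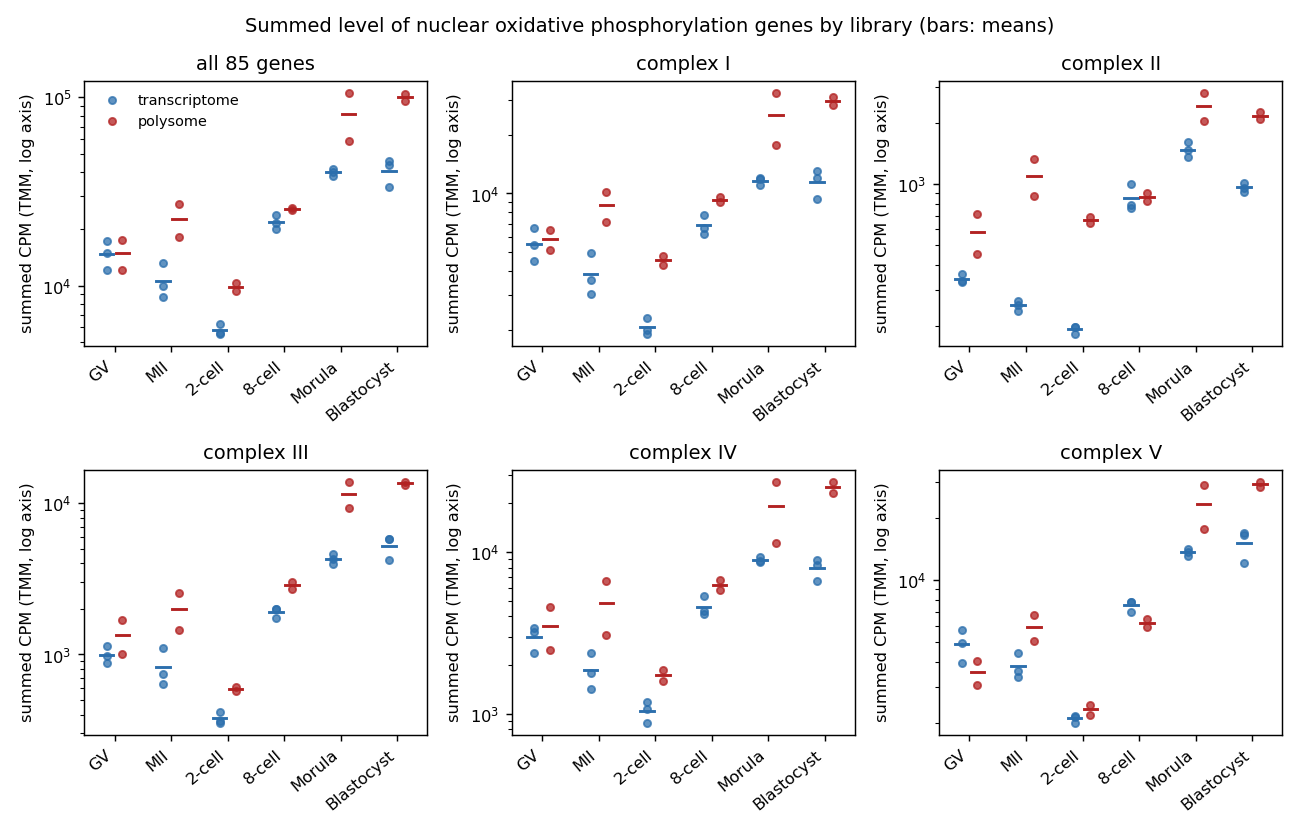
Summed level of all 85 genes and of each complex in every library by stage, in CPM with TMM scaling on a log axis, with points for single libraries (3 transcriptomes in blue, 2 polysome pools in red per stage) and bars for their means. Each complex has its lowest transcriptome level at the 2-cell stage, and complex V is the one whose polysome pools lie below the transcriptomes at the 8-cell stage.

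In the transcriptomes each complex had its low point at the 2-cell stage, with different margins. The complex II pools had no such low point, with 453 and 712 CPM at GV and 640 and 690 at the 2-cell stage. In complex II, the transcriptomes summed to 197, 182 and 198 CPM at the 2-cell stage and 1466, 1358 and 1610.3 in morulae, then to 917, 962 and 1012 in blastocysts, below all morula values. Complex III, the smallest set after complex II, went from 364, 353 and 416 CPM to 1986, 2002 and 1744 between the 2-cell and 8-cell transcriptomes, and its polysome pools from 612 and 569 to 2704 and 3032. In GV oocytes complex V had 3068 and 4043 CPM in pools and 3958, 5722 and 4946 in transcriptomes, which overlapped. For complex V the pools were lower at the 8-cell stage, with 5880.0 and 6431 CPM against 7779, 7839.9 and 6949 in the transcriptomes. In blastocysts, by contrast, complex V reached 28597 and 30206 CPM in polysomes and 16999, 12075 and 16519 in transcriptomes.

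Within each stage, the level in F8-F10 was compared with that in the transcriptome by edgeR's quasi-likelihood test. Genes were called at an adjusted p under 0.05. This sets gradient libraries against whole transcriptomes, so higher or lower in polysomes is relative to the transcriptome and not to other fractions. Differences between the transcriptome and the other fractions were not tested. A log2 fold change followed by ± is given with its standard error (SE). The fit behind it covered all 30 libraries together, 2 pools and 3 transcriptomes per stage, with a shared estimate of the spread. In GV oocytes, 19 of 83 genes were higher in polysomes, where 22.2% of all 14612 genes tested were, and 26 were lower (17.7%). At MII the split was 49 higher (30.8% of all genes) and 21 lower (26.7%). Embryos at the 2-cell stage had 45 higher (29.1%) and 19 lower (21.9%), and 8-cell embryos 25 higher (28%) and 24 lower (31%). In morulae 39 were higher (26.5%) and 12 lower (25.2%), and in blastocysts 45 were higher (20%) and 7 lower (20.1%). The share higher was thus close to the background at the GV and 8-cell stages and above it at the other 4. The share lower was above the background at the GV stage. It was close to it at MII and at the 2-cell and 8-cell stages, and below it in morulae and blastocysts.

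The median log2 fold change of the 83 genes, polysomes over transcriptome, was -0.10 in GV oocytes, 1.62 at MII, 1.12 at the 2-cell stage, -0.04 at the 8-cell stage, 0.80 in morulae and 1.14 in blastocysts. Over all genes it lay between -0.26 and 0.18. Single pools turned the sign of the median where it was near 0: without GV pool A it was 0.10, and without 8-cell pool B 0.22. Morulae depended on the gradient, with 23 genes higher and 24 lower (median -0.05) without pool A, and 48 and 4 (median 1.24) without pool B. Without normalization factors the morula split was 31 and 17. By complex, the median in GV oocytes ran from -0.81 in complex V to 0.72 in complex IV, and at MII from 1.09 in complex I to 2.32 in complex III.

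Some genes were on the same side at every stage. Of the 83, 14 were higher in polysomes at all 6 stages and 4 were lower at all 6, which is 16.9% and 4.82%, against 9.92% and 5.78% of all genes. The genes higher at all 6 stages included NDUFA7, NDUFB11, NDUFS6, NDUFS7, NDUFS8 and NDUFV1 of complex I, CYC1, UQCR11, UQCRC1 and UQCRQ of complex III, COX6B1 and COX8A of complex IV, and ATP5F1D of complex V. Lower at all 6 stages were NDUFA5, UQCRB, UQCRC2 and ATP5PB. At 5 or more stages, 26 were higher (31.3%) and 13 lower (15.7%), against 17% and 12.1% of all genes. The number of genes higher at one stage and lower at another was 8 (9.64%), against 7.53% of all genes. As a description over the 83 genes, Pearson's r between the log2 fold changes of 2 stages was 0.907 for GV and 8-cell, 0.9 for 2-cell and 8-cell, and 0.843 for 8-cell and morula, where the r over all genes was 0.578, 0.596 and 0.564. With blastocysts the r was 0.455 for GV and 0.477 for morula, where the r over all genes was 0.39 and 0.515. For morula and blastocyst Pearson's r was thus lower among the 83 than over all genes. The rank correlation (Spearman's rho) had the opposite order there, 0.742 among the 83 and 0.581 over all genes. The libraries of 2 stages are separate, but all points share the amplification kit and the annotation.

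**Figure D2:**
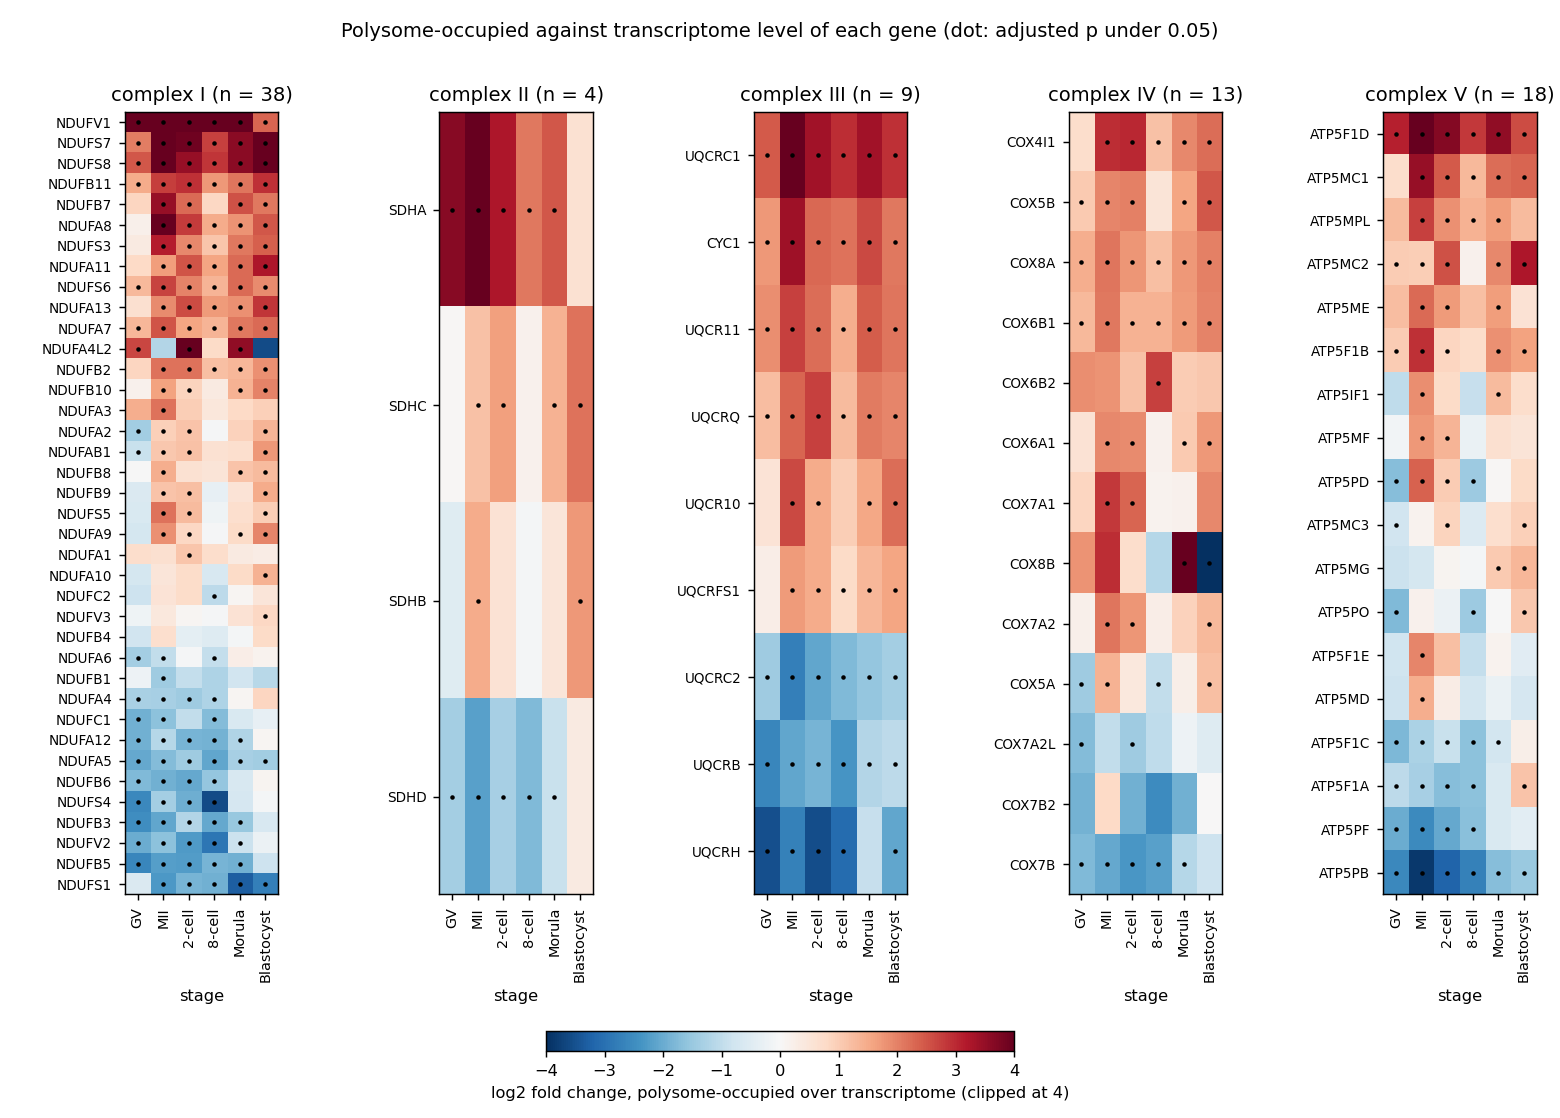
Log2 fold change of F8-F10 polysome pools (n = 2) over transcriptomes (n = 3) at 6 stages for the genes in the model, 1 left out of the drawing, by complex and sorted by the median, with colour from blue (lower in polysomes) to red (higher) clipped at 4 and a dot where the adjusted p was under 0.05. Among the genes that keep their colour across stages, NDUFV1, SDHA, UQCRC1 and ATP5F1D are red at every stage, and NDUFB5, UQCRB, UQCRC2 and ATP5PB are blue.

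Taking the 6 stages from GV to blastocyst in order, of 39 complex I genes 8, 21, 21, 12, 17 and 22 were higher in polysomes and 12, 12, 9, 12, 6 and 2 lower. The split ran through its core. NDUFV1, which binds NADH and the flavin, was measured at 44.6, 38.6 and 35.4 CPM in GV transcriptomes and 563 and 707 in GV polysome pools. Its means over both GV gradients were 944 CPM in F1-F2, 475 in F3-F5 and 816 in F6-F7, also above the transcriptomes. At MII its transcriptomes held 11.9, 7.70 and 4.88 CPM and its pools 635 and 634. No pool overlapped a transcriptome, and the log2 fold change was 4.01 ± 0.28 at GV (adjusted p = 3.81e-10) and 6.28 ± 0.32 at MII (adjusted p = 5.1e-13). NDUFS7 and NDUFS8, which carry iron-sulfur clusters next to the ubiquinone site, were higher in polysomes at all 6 stages, by log2 fold changes of 2.06 to 4.94. In blastocysts, NDUFS8 stood at 168, 133 and 139.7 CPM in transcriptomes and 2508 and 2546 in pools (log2 fold change 4.11 ± 0.29, adjusted p = 7.83e-10). NDUFS3, another core subunit of the peripheral arm, was higher at 5 stages. NDUFS1, the largest iron-sulfur subunit, and NDUFV2, the partner of NDUFV1, went the other way and were lower at 5 stages each. In morulae NDUFS1 was at 196, 170.1 and 216 CPM in transcriptomes and 7.08 and 31.9 in polysomes, a log2 fold change of -3.31 ± 0.61 (adjusted p = 9.67e-05). NDUFV2 stood at 304, 155 and 186 CPM and 23.1 and 35.1 at the 8-cell stage (log2 fold change -2.88 ± 0.36, adjusted p = 5.13e-07), so that the pair NDUFV1 and NDUFV2 lay on opposite sides at each of 5 stages.

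Accessory subunits of complex I were divided in the same manner. NDUFB11, part of the membrane arm, was higher in polysomes at 6 stages, with 233, 247 and 191 CPM in 8-cell transcriptomes and 602 and 874 in pools. NDUFB5, another membrane-arm subunit, was lower at 5 stages, with 86.9, 108 and 126 CPM in GV transcriptomes and 16.1 and 19.3 in GV pools (log2 fold change -2.60 ± 0.40, adjusted p = 1.37e-05). The pools lay below the transcriptomes for NDUFB5 at all 6 stages. Its means over both GV gradients were below the GV transcriptomes in F1-F2 (6.48 CPM), F3-F5 (2.31) and F6-F7 (5.78) too. NDUFS4, an accessory subunit needed for a stable NADH-oxidizing module, was at 299, 148 and 151 CPM and 8.74 and 24.6 at the 8-cell stage (log2 fold change -3.58 ± 0.49, adjusted p = 1.58e-06), and in blastocysts, with 157, 151 and 205 and 142 and 178, the pools and transcriptomes overlapped. NDUFA5, of the peripheral arm, was the complex I subunit called lower at all 6 stages, by log2 fold changes of -2.08 to -1.32. Among the GV fractions its mean was nevertheless highest in F8-F10 (18.7 CPM), against 6.95 in F1-F2, 2.09 in F3-F5 and 5.58 in F6-F7. NDUFA8, called higher at 5 stages, had its lowest GV mean in F8-F10 (453 CPM), against 1694, 670 and 856.

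The 4 subunits of complex II differed from each other. SDHA, the flavoprotein that oxidizes succinate, was at 21.2, 17.9 and 14.2 CPM in MII transcriptomes and 942 and 489 in MII pools, a log2 fold change of 5.33 ± 0.41 (adjusted p = 1.33e-10), and it was higher at 5 stages. In blastocysts the SDHA pools, at 499.7 and 342 CPM, still lay above the transcriptomes at 267, 286 and 279.8, but the difference of 0.60 ± 0.37 had an adjusted p of 0.192. SDHD, one of the membrane anchors, was lower in polysomes at the 5 stages up to the morula, with log2 fold changes of -2.17 at MII and -1.77 at the 8-cell stage. At the 8-cell stage it stood at 296, 339 and 298 CPM in transcriptomes and 90.02 and 91.8 in pools, which did not overlap. SDHB, the iron-sulfur subunit, was higher at MII and in blastocysts (1.49 and 1.75), and SDHC, the other anchor, at MII, the 2-cell stage, the morula and the blastocyst (1.16 to 2.16).

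In complex III, 5 of 9 subunits were higher at 5 or more stages (55.6%) and 3 lower (33.3%), against 17% and 12.1% of all genes. UQCR10 was higher at 4 stages. The large core proteins form a pair with opposite values: UQCRC1 was higher at every stage and UQCRC2 lower at every stage. At MII, UQCRC1 was at 40.6, 35.1 and 35.8 CPM in transcriptomes and 771 and 913 in pools (log2 fold change 4.50 ± 0.35, adjusted p = 1.62e-10). UQCRC2 was at 155, 141 and 168 CPM in the same transcriptomes and 22.6 and 24.1 in the pools (log2 fold change -2.73 ± 0.30, adjusted p = 4.76e-08). CYC1, the cytochrome c1 that hands electrons to cytochrome c, was higher at 6 stages by 1.75 to 3.38, and UQCRFS1, the Rieske iron-sulfur protein, at the 5 stages from MII on. UQCRH, the hinge protein that contacts CYC1, was among the lowest: the GV transcriptomes held 88.6, 128 and 129 CPM and the GV pools 9.46 and 10.5 (log2 fold change -3.53 ± 0.62, adjusted p = 7.4e-05). The low values were not particular to polysomes. Means over both GV gradients were 7.63 CPM in F1-F2, 1.46 in F3-F5 and 5.09 in F6-F7. In morulae, UQCRH stood at 518 and 46.96 CPM in pools A and B against 548, 496 and 572 in transcriptomes, and the difference of -0.93 did not pass the test (adjusted p = 0.155).

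Of 13 complex IV genes tested, in order of stage, 3, 8, 7, 4, 6 and 7 were higher in polysomes and 3, 1, 2, 2, 1 and 1 lower. COX4I1, the regulatory subunit that binds nucleotides, was higher at the 5 stages from MII on, with 30.96, 33.9 and 34.97 CPM in 2-cell transcriptomes and 271 and 269 in pools (log2 fold change 3.02 ± 0.36, adjusted p = 2.11e-07). COX5B, which binds zinc, was higher at 5 stages and reached 6121 and 7035 CPM in blastocyst pools against 1256, 1109 and 1195 in transcriptomes. COX5A changed side, lower at the GV and 8-cell stages (-1.42 and -0.98) and higher at MII and in blastocysts (1.38 and 1.21). COX7B, a small membrane subunit, was lower at the 5 stages up to the morula, and its 2-cell transcriptomes held 55.8, 72.6 and 59.6 CPM against 15.3 and 9.54 in pools (log2 fold change -2.33 ± 0.47, adjusted p = 0.000196).

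Of 18 complex V genes, in order of stage, 3, 11, 9, 3, 8 and 8 were higher in polysomes and 7, 4, 4, 6, 2 and 1 lower. Its catalytic F1 part was split. ATP5F1D, the delta subunit of the central stalk, was at 20.4, 22.2 and 11.9 CPM in MII transcriptomes and 492 and 718 in pools (log2 fold change 5.06 ± 0.33, adjusted p = 8.7e-12) and was higher at all 6 stages. ATP5F1B, the catalytic beta subunit, was higher at 5 stages. Its partner in the head, ATP5F1A, the alpha subunit, was lower at the 4 stages up to the 8-cell embryo and higher in blastocysts, where the transcriptomes held 375, 393 and 401 CPM and the pools 879 and 834 (log2 fold change 1.14 ± 0.29, adjusted p = 0.00361). ATP5F1C, the gamma subunit that turns inside the head, was lower at the 5 stages up to the morula (-1.78 at GV), and ATP5F1E, the epsilon subunit, passed the test only at MII (1.94).

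Of the c-ring genes of complex V, ATP5MC1, ATP5MC2 and ATP5MC3, which encode the same mature protein, ATP5MC1 and ATP5MC2 were higher in polysomes at 5 stages each. ATP5MC3 was lower at GV (-0.76) and higher at the 2-cell stage and in blastocysts (0.88 and 0.97). ATP5PB, the b subunit of the peripheral stalk, was the member of complex V called lower at all 6 stages. MII transcriptomes held 634, 536 and 772 CPM of ATP5PB and MII pools 49.1 and 40.9, a log2 fold change of -3.85 ± 0.28 (adjusted p = 4.48e-11). ATP5PF, also of the peripheral stalk, was lower at the 4 stages up to the 8-cell embryo (-1.997 to -1.66). Many small subunits have processed pseudogenes, and how reads shared with such copies were assigned was not tested.

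Between GV and MII, the transcriptome and the polysomes went different ways. In the transcriptome 31 of 83 genes fell more than 2-fold at an adjusted p under 0.05 (10.5% of all genes fell) and 2 rose (6.61%), with a median log2 fold change of -0.72. In polysomes 12 rose (3.03%) and 1 fell (2.33%), with a median of 0.37. The difference between both changes was tested directly, and 29 genes had a higher change in polysomes (7.14%) and 2 a lower one (3.5%). The polysome counts moved with single pools and with scaling: 0 were called as rising without GV pool A and 5 without MII pool B, and 7 rose and 4 fell without normalization factors, where the median was -0.02. The count with a higher change in polysomes was 14 and 20 without those pools.

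ATP5PD, the d subunit of the peripheral stalk, had the largest difference between both changes. GV transcriptomes held 268, 457 and 387 CPM and MII transcriptomes 116, 78.4 and 54.6, a fall of log2 fold change -2.16 ± 0.32 (adjusted p = 2.02e-05). GV pools held 96.4 and 132 CPM and MII pools 321 and 528, a rise of 1.89 ± 0.39 (adjusted p = 0.00446). Neither pair of groups overlapped, and the changes differed by 4.05 ± 0.50 (adjusted p = 1.15e-05). NDUFA8, an accessory subunit of complex I, fell in the transcriptome from 324, 539 and 361 to 34.1, 24.3 and 17.5 CPM, while the pools held 520.1 and 418 and then 334 and 509.9, which overlapped. NDUFS7 likewise fell by 3.68 on the log2 scale in the transcriptome, and its polysome change of -0.80 had an adjusted p of 0.147. In complex II the change was also higher in polysomes, by 1.69 for SDHA and 1.98 for SDHB on the log2 scale. In complex V ATP5F1B rose in polysomes (1.87). UQCRC2 and ATP5PB, lower in polysomes than in the transcriptome at all 6 stages, were the 2 genes with a lower change in polysomes (-1.31 and -1.26). Means over both GV gradients in F1-F2, F3-F5 and F6-F7 were 45.0, 28.4 and 29.7 CPM for UQCRC2. For ATP5PB they were 43.8, 22.6 and 21.2 CPM. ATP5PB rose in the transcriptome (1.14), and UQCRC2 was the gene that fell in polysomes (-1.50).

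**Figure D3:**
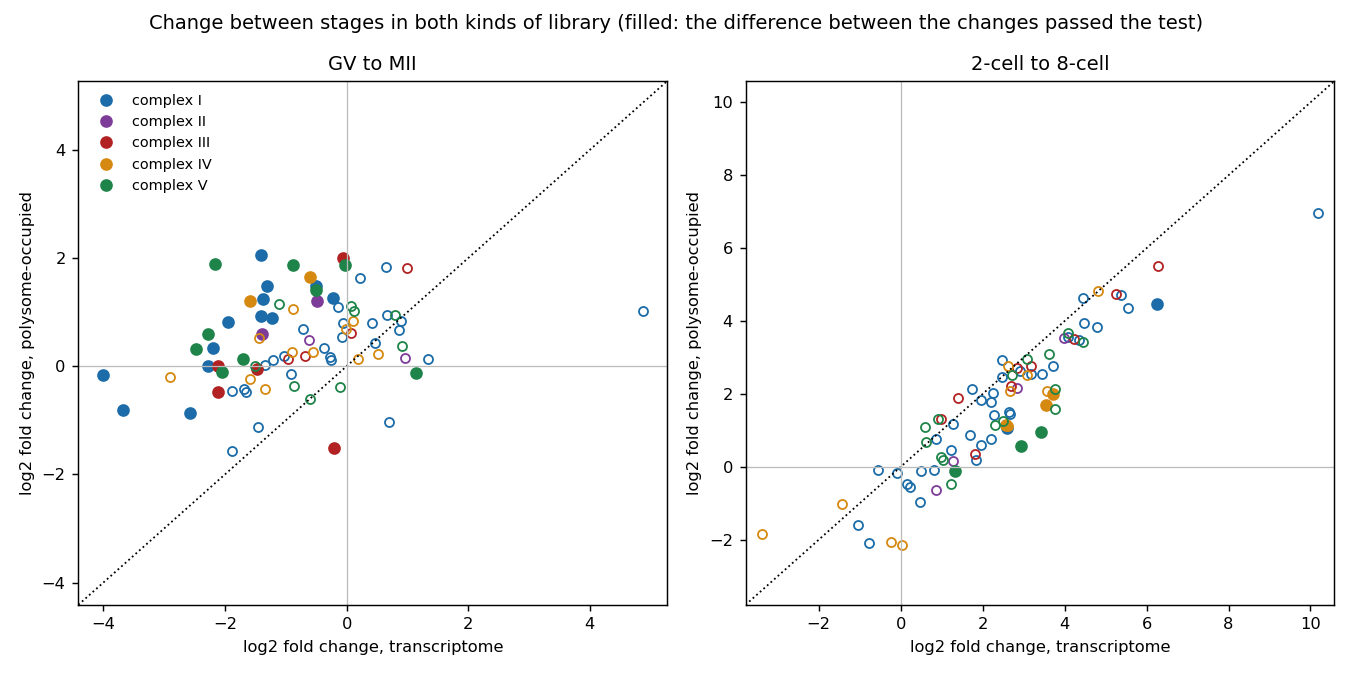
Log2 fold change of each of 83 genes in the transcriptome (x axis) and in polysomes (y axis) between GV and MII (left) and between the 2-cell and 8-cell stages (right), coloured by complex, with filled points where the difference between both changes had an adjusted p under 0.05 and a dotted line of equal change. From GV to MII most points lie above the line, and from the 2-cell to the 8-cell stage most lie below it while both changes are positive.

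From MII to the 2-cell stage the levels fell in both kinds of library. In the transcriptome 38 genes fell (5.96% of all genes) and 1 rose (6%), with a median of -1.08, and in polysomes 40 fell (5.14%) and 1 rose (3.37%), with a median of -1.45. Without normalization factors 25 fell and 5 rose in the transcriptome. Leaving out MII pool B, 2-cell pool A or 2-cell pool B left 18, 24 and 15 genes that fell in polysomes. UQCR11, a small subunit of complex III, went from 8.70, 11.8 and 4.40 CPM in MII transcriptomes to 0.456, 1.12 and 1.58 at the 2-cell stage, and from 22.2 and 88.7 to 6.25 and 3.66 in pools (log2 fold change -3.48 ± 0.64, adjusted p = 0.00153). NDUFC2, of complex I, fell by a similar margin in both (-4.17 and -3.97). NDUFA8 rose in both (2.37 and 1.10) and was the gene that rose in each. The changes differed for 4 genes, all lower in polysomes (1.08%), among them NDUFV1, SDHA and ATP5F1B. None had a higher change in polysomes (0.725%), where edgeR gave 3 at an unadjusted p under 0.05 and DESeq2 2 after adjustment.

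In the transcriptome, the rise to the 8-cell stage had the largest median of the 5 transitions. Of 83 genes, 63 rose in the transcriptome (26.6% of all genes) and 3 fell (23.5%), with a median log2 fold change of 2.56, and 53 rose in polysomes (21%) and 3 fell (25.2%), with a median of 1.59. By complex the transcriptome median was 2.25 in complex I, 2.05 in II, 2.84 in III, 2.63 in IV and 2.60 in V, and 8 of the 9 complex III genes rose. The 7 core genes of complex I had a median of 0.49, and 3 of them rose (NDUFS3, NDUFS7 and NDUFV1). UQCR11 went from 0.456, 1.12 and 1.58 CPM to 94.7, 74.7 and 76.3 in the transcriptome (log2 fold change 6.27 ± 0.62, adjusted p = 1.53e-08) and from 6.25 and 3.66 to 302 and 151 in polysomes. COX6B1, which faces the intermembrane space, went from 18.03, 17.8 and 24.1 CPM to 437, 758 and 498 and from 59.96 and 43.7 to 1627 and 1336. ATP5MD, a small subunit of complex V, rose by 4.45 in the transcriptome and 3.41 in polysomes, and SDHD by 3.98 and 3.54. For these genes no 2-cell library overlapped an 8-cell library of its kind.

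A few subunits fell at this stage. NDUFAB1, the mitochondrial acyl carrier protein that is also part of complex I, went from 294, 246 and 377 CPM to 158, 155 and 133 in the transcriptome and from 739 and 636 to 257 and 199.8 in polysomes (log2 fold change -1.04 and -1.59), and fell in both. COX7A2L, which links complexes III and IV in supercomplexes, went from 445, 610.2 and 594 CPM to 180.5, 200.4 and 235 in the transcriptome (log2 fold change -1.42 ± 0.40, adjusted p = 0.0051). The low-level isoform COX6B2 also fell, from 1.06, 1.68 and 2.93 CPM to 0, 0.0896 and 0.435. NDUFA8 fell in polysomes from 882 and 931 to 247 and 178 CPM (-2.09), and COX7A1, described further on, by a log2 fold change of -2.15. The polysome change was lower than the transcriptome change for 8 genes (8.71%, a share near the background), among them ATP5PD (-2.47), ATP5MC2 (-2.36), COX4I1 (-1.85) and COX6A1 (-1.72), and higher for 0 (3.45%), with 0 at an unadjusted p under 0.05 in edgeR and 0 in DESeq2.

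From the 8-cell stage to the morula, 31 genes rose in the transcriptome (6.6% of all genes) and 2 fell (7.75%), with a median of 0.99. In polysomes 63 rose (18.5%) and 2 fell (17.7%), with a median of 1.84, and without morula pool A 37 rose. Each of the 9 complex III genes rose in polysomes. CYC1 went from 167, 68.3 and 89.2 CPM to 539.8, 391 and 436 in the transcriptome and from 392 and 580.4 to 2474 and 3216 in polysomes (log2 fold change 2.08 ± 0.31 and 2.55 ± 0.38). The stages were apart in both kinds of library. The genes that fell were NDUFA4L2 and COX7A1, in both kinds. In polysomes NDUFB7 rose by 2.88, NDUFA10 by 2.88, SDHC by 2.18, COX5B by 2.46 and ATP5MF by 2.53. The polysome change was higher for 7 genes (7.05%), of which 5 belong to complex V and NDUFS4 had the largest difference (2.92 ± 0.60), and 0 had a lower one (5.41%; 0 at an unadjusted p under 0.05 and 0 in DESeq2). Without morula pool B the count was 30, and without pool A 3.

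Between morula and blastocyst the set stood near a plateau. In the transcriptome 8 genes rose (10.2% of all genes) and 11 fell (11.4%), shares close to the background, with a median of -0.05. The split was 10 and 8 with relative log expression factors (median 0.06) and 5 and 12 without factors. In polysomes 0 rose (5.79%; 8 at an unadjusted p under 0.05, 3 in DESeq2) and 1 fell (8.12%), which was NDUFA4L2 with 0 and 2.39 CPM in morula pools and 0 and 0 in blastocyst pools, but 32 rose when morula pool A was left out. Subunits of complex II diverged here. SDHA rose in the transcriptome from 113, 116 and 95.8 to 267, 286 and 279.8 CPM (1.36 ± 0.34, adjusted p = 0.00443), while SDHB fell from 389, 348 and 365 to 209, 157 and 171 (-1.04 ± 0.24, adjusted p = 0.0024) and SDHC fell by a log2 fold change of -1.21. ATP5F1A fell from 1618, 1612 and 1661 to 375, 393 and 401 CPM (-2.06 ± 0.28, adjusted p = 8.3e-06), whereas its pools held 1032 and 1115 and 879 and 834. ATP5IF1, which inhibits the ATPase activity of complex V, rose by 2.06, UQCR11 by 1.73 and NDUFV1 by 1.11. The changes differed for 3 genes higher in polysomes (6.04%: SDHB, SDHD and ATP5F1A) and 3 lower (6.23%: NDUFV1, SDHA and COX8B).

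Within each of the 12 gradients, the summed level of the 85 genes was lowest in the monosome fractions. In GV oocytes the summed level averaged 23221 and 30610 CPM in F1-F2 of gradients A and B, 9082 and 5242 in F3-F5, 12269 and 12097 in F6-F7 and 11862 and 16728 in F8-F10. At MII the free fractions stood apart, with 56442 and 57474 CPM in F1-F2 against 12024 and 17254 in F3-F5 and 16372 and 29813 in F8-F10. At the 8-cell stage the order changed, and F8-F10 held 23761 and 23032 CPM against 14859 and 12687 in F1-F2 and 9098 and 7625 in F3-F5. Counted by gene, the class with the highest mean was F1-F2 for 62 of 81 genes at MII and for 51 of 80 at the 2-cell stage (31% and 29.2% of all genes), and F8-F10 for 53 of 82 at the 8-cell stage (28.4%). F8-F10 exceeded F3-F5 in both gradients for 69 of 81 genes at GV and 73 of 82 at the 8-cell stage, and for 34.2% and 29.8% of all genes. NDUFA11, an accessory subunit of complex I, was the complex I gene with the steepest 8-cell trend, together with NDUFA13, and had 1610.3 and 1333 CPM in F1-F2, 159 and 221 in F3-F5 and 293 and 572 in F8-F10 at MII.

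**Figure D4:**
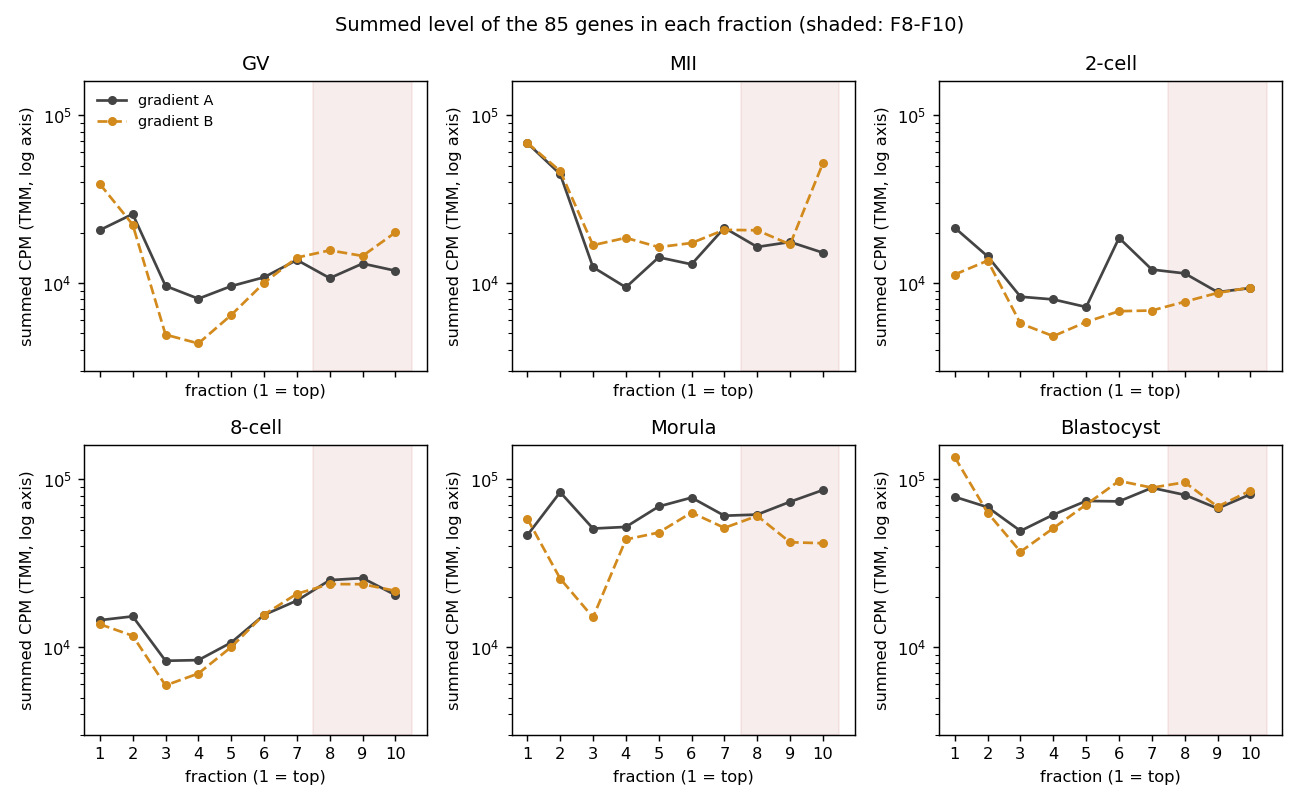
Summed level of the 85 genes in each of 10 gradient fractions (F1 at the top of the gradient) for gradients A and B at 6 stages, in CPM with TMM scaling on a log axis, with F8-F10 shaded. The level dips at F3-F5 in GV oocytes, 2-cell and 8-cell embryos, and F10 of MII gradient B and the morula gradients stand apart from their partners.

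The trend from F3 to F10, measured by Spearman's rho over the 16 fraction libraries of a stage with a permutation p, had a positive median at all 6 stages, and genes were called at an adjusted p under 0.05. At the GV stage 62 of 81 genes rose toward heavy fractions (16.5% of 11618 genes) and 1 fell (20.2%), with a median rho of 0.85 where all genes had -0.09. MII oocytes had 24 rising (7.39%) and 4 falling (11.8%), and 2-cell embryos 32 rising (9.86%) and 5 falling (10%), with medians of 0.42 and 0.48. At the 8-cell stage 47 of 82 rose (5.63%) and 0 fell (10.8%; 3 at an unadjusted p under 0.05). Morulae had 7 rising (0.687%) and 0 falling (0.774%; 2 unadjusted), and blastocysts 28 rising (5.72%) and 0 falling (1.9%; 1 unadjusted). The medians at these 3 stages were 0.70, 0.32 and 0.57. No other tool was run for the trend. The 16 libraries are 8 fractions of 2 gradients, so the p measures order along the gradient and not the spread between batches. With 1 gradient alone the called genes numbered 0 to 58, and when F1-F2 were included 23 rose at GV, 3 at MII, 4 at the 2-cell stage and 23 at the 8-cell stage. With F1-F2, 1 fell at GV, 5 at MII, 4 at the 2-cell stage and 0 at the 8-cell stage. The median rho then was -0.145 at MII and -0.021 at the 2-cell stage, and stayed positive at the other stages.

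By complex, 15 of 18 complex V genes, 10 of 11 of complex IV, 8 of 9 of complex III, 3 of 4 of complex II and 26 of 39 of complex I rose along the GV gradients. Of the 7 complex I core genes, 1 rose (NDUFS1, rho = 0.77). At MII the rising genes included NDUFB1 (rho = 0.92), SDHD (0.92) and ATP5MG (0.93), and the falling ones were NDUFV2 (-0.80), UQCRC2 (-0.83), ATP5F1A (-0.83) and ATP5F1C (-0.89). Of these, ATP5F1A fell along the 2-cell gradients too (rho = -0.92) and rose along those of morulae (0.89) and blastocysts (0.81). Of the 8-cell genes, NDUFA11 (0.93) and COX7A2 (0.89) were among the steepest, and the 7 morula genes were CYC1, UQCRC1, COX4I1, ATP5F1A, ATP5F1B, ATP5F1C and ATP5PO.

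Paralogs of complexes I and IV followed separate courses. COX7A1, the isoform best known from heart and skeletal muscle, was at 44.1, 76.5 and 67.7 CPM in GV transcriptomes and 95.1 and 132 in GV pools, and at 20.6, 11.02 and 13.6 and 17.9 and 15.3 at the 8-cell stage. In morulae it was at 0.373, 0.0894 and 0 CPM and 0 and 0.316, and the fall from the 8-cell stage was called in both kinds of library (log2 fold change -6.50 and -6.49, where levels near 0 make the size depend on the prior count). COX7A2, the form found in most tissues, rose over the same stages, from 57.3, 68.7 and 97.2 CPM at the 2-cell stage to 594, 1162 and 907 at the 8-cell stage and 1827, 1719 and 1670.4 in morulae. COX4I1 and COX6A1 were present at every stage, whereas COX4I2 and COX6A2 stayed at or under 1.04 CPM in all 30 libraries.

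**Figure D5:**
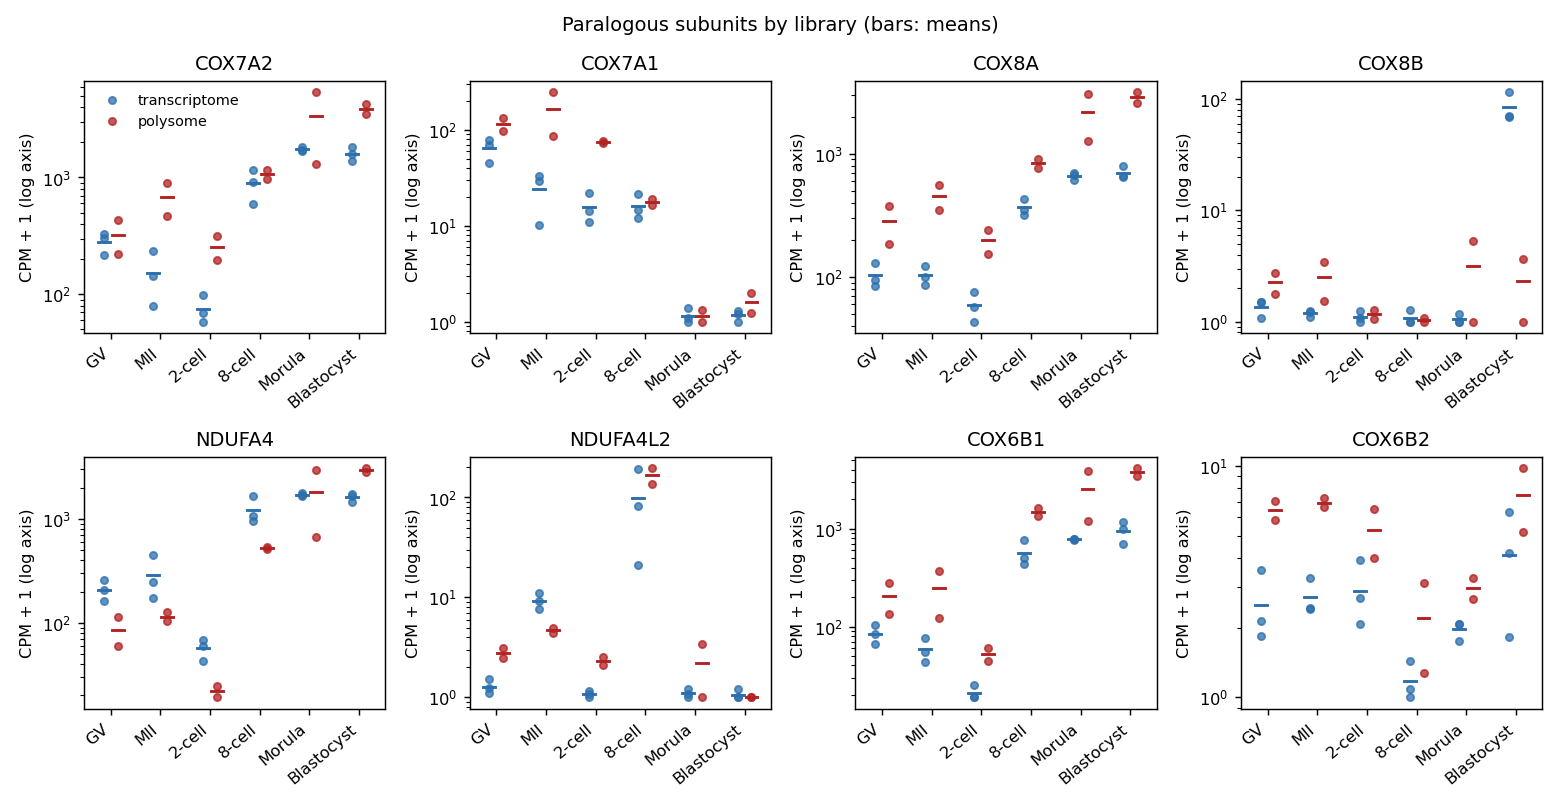
Level (CPM + 1, log axis) of 4 pairs of paralogous subunits in every library by stage, with points for single libraries (3 transcriptomes in blue, 2 polysome pools in red per stage) and bars for their means. COX7A1 drops to about 1 on this scale (0 CPM) from the morula on while COX7A2 rises, NDUFA4L2 peaks at the 8-cell stage, and COX8B is high only in blastocyst transcriptomes.

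NDUFA4L2, a paralog of NDUFA4 that is induced by hypoxia in other cells, peaked at the 8-cell stage. The 8-cell transcriptomes held 192, 20.2 and 80.8 CPM and the 8-cell pools 136 and 195, and the 2-cell libraries at most 1.54. MII transcriptomes held 6.64, 8.31 and 9.99 CPM, above the GV values of 0.228, 0.513 and 0.101. Its level rose from GV to MII (4.87) and from the 2-cell to the 8-cell stage, and was 0.0933, 0 and 0.215 CPM in morula transcriptomes. The 12 markers of cumulus and granulosa cells summed to between 268 and 1215 CPM in 8-cell transcriptomes, between 402 and 446 at the 2-cell stage, between 594 and 802 at MII and between 29.02 and 34.4 in morulae. In 8-cell pools they summed to between 122 and 208 CPM. CYP11A1, the steroidogenic enzyme of granulosa cells, was at 146, 51.1 and 61.3 CPM and VCAN, a matrix proteoglycan of the cumulus, at 883, 112 and 143 in 8-cell transcriptomes A, B and C, both highest in A as NDUFA4L2 was. At the 8-cell stage 8 of the 12 markers reached 1 CPM in every transcriptome, while AMH and FOXL2 were near or under 1 CPM in each. Their part in the NDUFA4L2 values was not tested. Its more abundant paralog NDUFA4 rose at the same stage from 41.8, 58.9 and 67.6 to 956, 1655 and 1074 CPM and stayed high (1758, 1460.1 and 1658 in blastocysts).

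COX8B, the isoform of COX8 found in heart and muscle of many mammals, was high in blastocyst transcriptomes and not in blastocyst polysomes. Blastocyst transcriptomes held 68.8, 67.98 and 113 CPM and the pools 0 and 2.64, and the rise from the morula was called in the transcriptome (log2 fold change 10.22). No transcriptome of an earlier stage passed 0.513 CPM, and the morula pools held 4.34 and 0. The change from morula to blastocyst differed between polysomes and transcriptome by -10.91 ± 2.54 on the log2 scale (adjusted p = 0.00746), a size that rests on values at or near 0 in morula transcriptomes and blastocyst pools. COX8A, the form of most tissues, was higher in polysomes at all 6 stages and held 2584 and 3143 CPM in blastocyst pools against 796, 650.1 and 662 in transcriptomes. COX6B2 and COX7B2, isoforms known from testis, stayed at or under 12.7 CPM in every polysome pool and transcriptome, while COX6B1 reached 3450.5 and 4162 CPM in blastocyst pools and COX7B 1173, 749 and 1128 in blastocyst transcriptomes.

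Other genes of the pathway were read from lists beside the subunits. Of 47 assembly factors, which build the complexes without staying in them, 18 were higher and 16 lower in polysomes at MII (median 0.43), beside 30.8% and 26.7% of all genes, and 18 and 4 in blastocysts (median 0.79), beside 20% and 20.1%. At GV, 9 were higher and 16 lower (median -0.48), beside 22.2% and 17.7% of all genes. SCO2, a copper chaperone of complex IV, and ECSIT, a complex I assembly factor, were higher in GV polysomes (4.09 and 3.99). LYRM7, which serves complex III, and SDHAF4, which serves complex II, were lower there (-3.76 and -3.62). From the 2-cell to the 8-cell stage 22 assembly factors rose and 5 fell in the transcriptome (median 1.24), beside 26.6% and 23.5% of all genes. Mitochondrial ribosomal proteins, which translate the mitochondrial mRNAs, fell from GV to MII for 38 of 77 in the transcriptome (median -1.10; 10.5% of all genes), and 36 had a higher change in polysomes (7.14% of all genes). At the 8-cell stage 80 of 83 cytosolic ribosomal proteins rose in the transcriptome (median 4.05; 26.6% of all genes), beside a median of 2.56 for the subunits.

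Among 7 carriers of electrons, phosphate and adenine nucleotides, CYCS, the cytochrome c that links complexes III and IV, was lower in polysomes at all 6 stages (-3.66 at the 2-cell stage and -1.02 in blastocysts). SLC25A6, an ADP/ATP carrier, was higher at all 6 (5.01 and 2.77). SLC25A3, the phosphate carrier, went from 0.304, 0.240 and 0.150 CPM in 2-cell transcriptomes to 487, 301 and 307 at the 8-cell stage and 1043, 1106 and 1007 in morulae. Of 10 regulators of respiratory genes, 4 rose and 2 fell at the 8-cell stage, beside 26.6% and 23.5% of all genes. TFAM, which maintains and transcribes mitochondrial DNA, rose from 1.37, 2.40 and 3.23 to 78.5, 117 and 84.3 CPM, and GABPA, a subunit of nuclear respiratory factor 2, from 29.4, 20.3 and 15.3 to 696, 925 and 714, while PPARGC1A, a coactivator of mitochondrial biogenesis, fell from 224, 152 and 111 to 6.94, 10.9 and 20.8.

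The 13 subunits encoded by mitochondrial DNA differed from the nuclear ones in some comparisons and not in others. They were lower in F8-F10 than in the transcriptome for 12 of 13 genes at GV, 13 at MII and 10 in blastocysts, where 17.7%, 26.7% and 20.1% of all genes were, with medians of -2.11, -3.20 and -2.62. Their sum was 8985 to 10809 CPM in 2-cell transcriptomes, 39354 to 52626 at the 8-cell stage and 187141 to 239462 in blastocysts. From morula to blastocyst 10 of the 13 rose in the transcriptome (median 1.76; 10.2% of all genes), where the nuclear subunits had a median of -0.05. From the 2-cell to the 8-cell stage all 13 rose in the transcriptome and in polysomes (26.6% and 21% of all genes). Along F3 to F10, 13 rose at GV, 9 at MII and 12 at the 2-cell stage (16.5%, 7.39% and 9.86%). In blastocysts 13 fell along these fractions (1.9%), and 0 were called at the 8-cell and morula stages.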

How the data were processed

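RNA of 120 gradient fractions and 18 whole transcriptomes was amplified with a Smart-seq kit and sequenced. The authors quantified reads with Salmon (version not given in the sources used here) and deposited estimated counts, per the labels against UMD3.1 and per the study's methods against ARS-UCD1.2. Of the deposited estimated counts, 11.7% were not whole, and values were rounded before testing. Here F8, F9 and F10 of a gradient were summed to a polysome pool, low genes were removed with filterByExpr, and 12 pools and 18 transcriptomes were fitted in one edgeR quasi-likelihood model with TMM factors and a trended dispersion (R 4.3.3, edgeR 4.0.16, limma 3.58.1) with Benjamini-Hochberg adjustment over 14612 genes. Transitions were called at an adjusted p under 0.05 and a fold above 2, the other contrasts at an adjusted p under 0.05. SE was the log2 fold change divided by the root of F. Trends over F3 to F10 used Spearman's rho of log2(CPM + 1) with 100000 permutations for genes with a mean of at least 1 CPM (Python 3.11.15, numpy 2.4.6, pandas 2.3.3, scipy 1.17.1, matplotlib 3.10.9).

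The members and the gene lists were chosen with earlier results of these data known. Named were the core and isoform genes listed for each complex, up to 2 called genes per complex, direction and comparison with the largest change and no overlap between groups, and up to 5 per other list. NDUFB11, NDUFS6 and other genes called at all 6 stages were named after their values were seen. The 78 pairs of libraries within groups held 0 identical pairs. Alternatives were DESeq2 1.42.0, a likelihood ratio test, relative log expression or no factors, no filter, F9 and F10 as the pool, F1 to F10 as the trend, a replicate block, and each library left out. The values of 1 gene of the set are not reported here; it stays in the counts and sums. Scripts were tested on simulated data.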

Additional observations from a re-analysis of the deposited data

Results flagged for a closer look

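The polysome change differed from the transcriptome change by a direct test for 31 of 83 subunit genes from GV to MII, for 4 from MII to the 2-cell stage, for 8 from the 2-cell to the 8-cell stage, for 7 from the 8-cell stage to the morula and for 6 from the morula to the blastocyst. Over all genes, in that order, the polysome change was higher for 7.14%, 0.725%, 3.45%, 7.05% and 6.04%. It was lower for 3.5%, 1.08%, 8.71%, 5.41% and 6.23%. From the 2-cell stage on, with both directions together, such genes were no more frequent among the 83 than over all genes. The largest difference from GV to MII was that of ATP5PD, the d subunit of the peripheral stalk of ATP synthase (4.053 on the log2 scale, positive where polysomes gained). From morula to blastocyst it was that of COX8B (-10.915), whose morula transcriptomes held 0, 0.179 and 0 CPM and whose blastocyst pools held 0 and 2.64.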

How the results depend on the processing

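Counts of called subunit genes stayed within 1.5 times the reported ones in 156 of 178 recalculations other than leaving out a library, and in 93 of 142 that left out 1 library. The polysome change from morula to blastocyst (1 called) gave 2 with the likelihood ratio test and 4 with DESeq2. For the difference between both changes, the likelihood ratio test and DESeq2 gave 8 and 8 from MII to the 2-cell stage, 16 and 19 from the 2-cell to the 8-cell stage, and 11 and 13 from the 8-cell stage to the morula, and DESeq2 10 from morula to blastocyst. With F9 and F10 as the pool the last 3 became 3, 4 and 3. Without the filter the difference from the 2-cell to the 8-cell stage was called for 3 genes. From the 8-cell stage to the morula it was called for 11 with relative log expression factors and 3 without factors. Without F10 of MII gradient B and F9 of morula gradient A, a choice made after seeing the data, 4 genes were called from morula to blastocyst in polysomes, 46 were higher and 23 lower in MII polysomes, and 38 and 13 in morula polysomes. Trends that took in F1 and F2 called 24 at GV, 8 at MII, 8 at the 2-cell and 23 at the 8-cell stage, and morula trends without factors 12. The cause was not tested for any of these. Other scalings moved the median of all genes, for polysomes over transcriptome from -0.26 to -0.50 at the 8-cell stage with relative log expression factors (subunits -0.27) and, without factors, to -0.34 in morulae and -0.42 in blastocysts (subunits 0.38 and 0.79). Without factors it was -0.29 from GV to MII and 0.47 from MII to the 2-cell stage in the transcriptome (subunits -1.11 and -0.59).

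Leaving out 1 library gave 1 to 14 called in polysomes from GV to MII, 15 to 44 from MII to the 2-cell stage, 39 to 75 from the 8-cell stage to the morula and 0 to 33 from morula to blastocyst. For the difference between both changes the ranges in the order of the transitions were 14 to 32, 1 to 3, 3 to 13, 3 to 31 and 3 to 25, and 2, 9, 8, 7 and 3 of the 10 libraries left out moved the count by over 1.5 times. From morula to blastocyst in polysomes, 5 were called without morula pool B and 0 without either blastocyst pool. With 1 gradient the trends called 18 to 58 at GV, 0 to 5 at MII, 0 to 35 at the 2-cell stage, 0 to 5 at the 8-cell stage, 0 to 0 in morulae and 0 to 0 in blastocysts, from 8 libraries in place of 16, with the lower values at GV and the 2-cell stage when gradient B was left out. A pool left alone at its stage was assumed to vary like the other groups. Whether the same letter pairs libraries was not settled: over 37 pairs the correlation of deviations was -0.345 to 0.13, over 0.1 in 1. With 2 pools per stage, A and B deviate equally in opposite directions from their mean. Both letters thus give the same correlation between the pools of 2 stages, and the pairs are not independent. With the letter as a block, the difference from MII to the 2-cell stage was called for 2 genes, and 26 of 27 counts stayed within 1.5 times.

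Reversed values were few among 12777 recalculated single-gene values. They were those of COX6B2 at the 8-cell stage with F9 and F10 as the pool (-0.757), NDUFA4L2 in morulae, which ran from -3.887 without pool B to 4.527 without transcriptome C, and COX8B in morulae without F9 of gradient A (-3.329, and -2.58 for its change from the 8-cell stage) or without pool A (-3.352 and -2.586, against up to 8.302 and 8.252 with another library left out). With F1 and F2, rho turned to -0.06 for COX5A, -0.151 for COX7A1, -0.1 for ATP5F1E and -0.018 for ATP5MC1 at GV, to -0.082 for NDUFA4, -0.006 for NDUFS8, -0.045 for COX6A1 and -0.024 for COX7A2 at MII, and to -0.027 for NDUFS3 and -0.121 for COX6B1 at the 2-cell stage.

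CPM gives shares within a library, so neither the amount of RNA nor its distribution among fractions can be read from it. With 2 pools per stage, a polysome change rests on 4 libraries, and genes near 0 CPM, such as COX8B and NDUFA4L2 outside their peak stage, carry fold changes that depend on the prior count.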
